A study of Mus musculus with 8 samples.

Results

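The polyamine and hypusine genes described here are 10 mouse genes: Srm, Sms, Odc1, Amd1, Azin1, Oaz1, Oaz2, Sat1, Dhps and Dohh. They were chosen by the measured values of Srm, which encodes spermidine synthase: it was higher after a knockdown of Pcbp1 and lower with an iron chelator in these same libraries. All 10 were found among the 14455 genes that could be assigned to a line of the per-library table, and all 10 passed the minimum of 1 RPM (reads in 1e+06 of a library's total) in at least 2 libraries of each experiment. The values of Srm chose the set, so they are given as a description without a test. The other 9 were tested within fits over all genes.

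RNA was sequenced from Th1 cells, the interferon gamma-producing class of T helper cell, grown in culture from C57BL/6 CD4 T cells. In every group the cells had been activated with antibodies to CD3 and CD28 and kept with IL-12 (2 ng/ml) and anti-IL-4 (5 µg/ml). One pair of groups carried a short hairpin RNA, either the Pcbp1 hairpin (2 libraries) or a scrambled hairpin (2 libraries), and was sequenced as total RNA depleted of ribosomal RNA. PCBP1 binds RNA and is known as an iron chaperone. The other pair received CPX, ciclopirox olamine, an iron chelator (2 libraries), or its solvent DMSO (2 libraries), and was sequenced as polyA RNA. The sources used here do not give the dose of CPX, the length of treatment, the age of the mice or the number of hairpin sequences. Nor do the labels say whether replicates are separate cultures or animals, so the p-values below measure the spread between libraries, which may be technical.

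Polyamines are small, positively charged molecules that cells need to grow and divide, and T cells raise their synthesis when activated. ODC1 makes putrescine from ornithine. AMD1 supplies the aminopropyl donor by decarboxylating S-adenosylmethionine, SRM adds one such group to give spermidine, and SMS adds the next to give spermine. Antizymes, encoded by Oaz1 and Oaz2, bind ODC1 and send it to the proteasome, and AZIN1 sequesters antizyme. SAT1 acetylates spermidine and spermine for export or breakdown. Spermidine is also the substrate for hypusine, a modified lysine of the translation factor eIF5A that is made by DHPS and finished by DOHH, an iron enzyme that ciclopirox is known to inhibit.

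The per-library totals were 14174293 to 15518303 counts in the hairpin experiment. In the CPX experiment the deposited values are a rescaled, rounded score and summed to 19193784 to 19662145 in a library, so their sampling depth is unknown. Replicates correlated across genes, on the log2 scale, at 0.993 for the Pcbp1 hairpin, 0.993 for the scrambled hairpin, 0.942 for CPX and 0.973 for DMSO. Pcbp1 itself had 15.1 and 16.1 RPM with the Pcbp1 hairpin, against 44.0 and 51.7 RPM with the scrambled hairpin. It also fell with CPX, at 238 and 199 RPM against 506 and 537.5 RPM with DMSO (2.40-fold, log2 -1.26, SE 0.20, limma adjusted p = 0.00613), and the difference between the effects was not called (-0.32, limma adjusted p = 0.229). All 9 Th1 markers were present, but their levels differed between groups. With CPX, limma called Ifng (7.8-fold), Cxcr3 (5.5-fold), Il12rb2 (3.9-fold), Stat4 (3.1-fold) and Cd3e (2.6-fold) lower and Cd3d (1.7-fold) higher. Cd3g, Cd4 and Tbx21 were not called there. After the knockdown Cd3d (2.3-fold), Ifng (2.2-fold), Cd3g and Stat4 were called lower, and Cd3e, Cd4 and Tbx21 higher. Cxcr3 and Il12rb2 were not called. The CD8 markers Cd8a and Cd8b1 summed to 92.0 and 11.6 RPM with the Pcbp1 hairpin and to 90.5 and 11.9 RPM with the scrambled hairpin, high in replicate 1 of both. With CPX, against DMSO, the summed markers of B cells (2 of 4 found) were 2.29 to 2.70 against 0.512 to 0.661 RPM, of NK cells (1 of 3) 6.08 to 14.5 against 1.78 to 2.51 RPM, of macrophages (1 of 4) 3.75 to 5.46 against 0 to 0.0509 RPM, and of fibroblasts (1 of 3) 3.12 to 4.32 against 0.203 to 0.460 RPM. The other listed markers were not among the lines assigned to a gene. The part of these cells in the CPX results was not tested. In bulk RNA, fewer cells of a type and less RNA per cell cannot be told apart.

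After the Pcbp1 hairpin, the genes for making polyamines split: Odc1 and Amd1 rose, Sms fell, and Srm was higher by the largest fold among the 10. The antizyme genes Oaz1 and Oaz2, Sat1 and, by small amounts, Azin1 and Dhps fell. With CPX, Odc1, Amd1, Sms and Dohh fell, Srm was lower, and Oaz1 rose. Of the 9 genes tested, 2 were called higher after the knockdown, where 29.3% of the 11575 genes tested were, and 6 were called lower, where 26.7% were (edgeR's quasi-likelihood test, Benjamini-Hochberg adjusted p under 0.05). Under CPX 1 of the 9 was called higher, where 19.9% of 11466 genes were, and 4 lower, where 24.8% were (limma on log2(RPM + 0.5), the same threshold). The median log2 fold change of the 9 was -0.36 after the knockdown and -0.33 with CPX, against 0.00 and -0.12 over all genes tested. Fold changes after the knockdown are on edgeR's TMM scale, so they differ somewhat from ratios of the RPM shown. By limma on log2(RPM + 0.5) the all-gene median after the knockdown was 0.10. The counts rest in part on single choices: the 8 calls of the knockdown were 5 by DESeq2, and the 5 calls of CPX were 2, Sms and Odc1, when either DMSO library was left out.

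**Figure D1:**
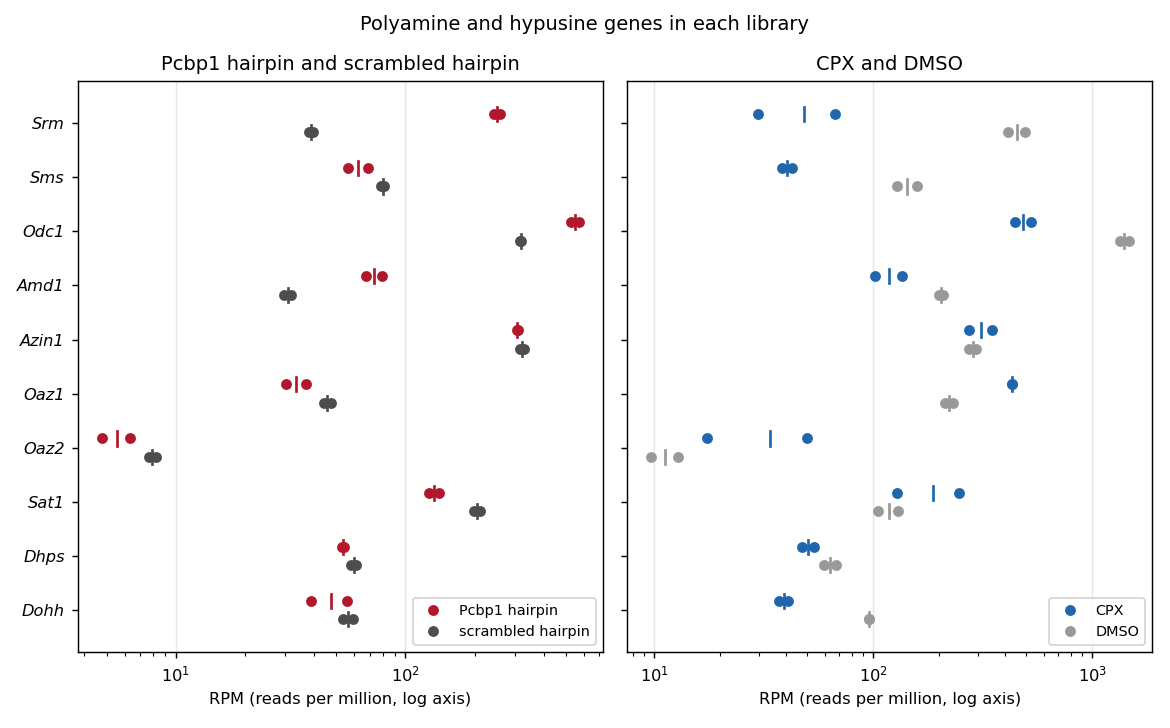
RPM of each of the 10 genes in every library, on a log axis, with the Pcbp1 hairpin above the scrambled hairpin (left) and CPX above DMSO (right). Points are libraries and upright ticks are the means of 2. The Srm points with the Pcbp1 hairpin (242.5 and 259) lie far to the right of those with the scrambled hairpin (39.5 and 38.2), and the CPX points (66.8 and 29.8) far to the left of the DMSO points (492 and 414).

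Srm, spermidine synthase, had 242.5 and 259 RPM with the Pcbp1 hairpin, against 39.5 and 38.2 RPM with the scrambled hairpin. Its fitted level was 5.99-fold higher (log2 fold change 2.58, SE 0.07). With CPX it had 66.8 and 29.8 RPM, against 492 and 414 RPM with DMSO. Neither pair of groups overlapped, and as a ratio the CPX libraries differed from each other by more than those of any other group. That fitted difference was 9.99-fold lower (log2 fold change -3.32, SE 0.40). These values picked the gene set and carry no test.

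Odc1 encodes ornithine decarboxylase, the first enzyme of the pathway and one of the shortest-lived proteins of the cell. It had 525 and 571 RPM with the Pcbp1 hairpin, against 319.5 and 317 RPM with the scrambled hairpin. In CPX-treated cells it had 442 and 525 RPM, against 1464 and 1337 RPM with DMSO. Both control groups were tight and neither pair of groups overlapped. Odc1 rose 1.60-fold after the knockdown (log2 0.68, SE 0.07, edgeR adjusted p = 0.000191) and fell 2.90-fold with CPX (log2 -1.54, SE 0.19, limma adjusted p = 0.00376). Both calls held in every alternative run. Odc1 overlaps a small nucleolar RNA gene, Gm22748, on the same strand, and whether the authors' counting separated them is not stated.

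Amd1, S-adenosylmethionine decarboxylase, had 67.2 and 78.8 RPM with the Pcbp1 hairpin, against 31.9 and 29.8 RPM with the scrambled hairpin. With CPX it had 134.7 and 102 RPM, against 209 and 201 RPM with DMSO. The groups lay apart in both experiments. It rose 2.20-fold after the knockdown (log2 1.14, SE 0.11, edgeR adjusted p = 9.79e-05) and fell 1.74-fold with CPX (log2 -0.80, SE 0.23, limma adjusted p = 0.0341). The CPX call was lost with TMM-scaled totals (adjusted p = 0.0565), with quantile normalization (0.0551), with no trend of the spread (0.0604) and without DMSO replicate 1 (0.243) or 2 (0.199). The authors' deposited table gave it an adjusted p of 0.07.

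Amd1 has near copies elsewhere in the genome, so its counts could be split between them and its level is uncertain. The copy Amd2 had 3.74 and 5.32 RPM with the Pcbp1 hairpin, against 1.27 and 0.908 RPM with the scrambled hairpin, and rose too (log2 1.94, SE 0.31, edgeR adjusted p = 0.00143). The pseudogene Amd-ps3, named after its values were seen, had 6.38 and 6.85 RPM with the Pcbp1 hairpin, against 2.26 and 1.68 RPM with the scrambled hairpin. Both copies lay in the same direction as Amd1 after the knockdown.

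Sms, spermine synthase, acts right after SRM in the pathway but did not follow it after the knockdown. It had 68.4 and 56.4 RPM with the Pcbp1 hairpin, against 80.7 and 78.4 RPM with the scrambled hairpin, a fall of 1.37-fold (log2 -0.46, SE 0.09, edgeR adjusted p = 0.00455). Under CPX it had 42.4 and 38.2 RPM, against 158.5 and 128 RPM with DMSO, a fall of 3.51-fold (log2 -1.81, SE 0.23, limma adjusted p = 0.00392). Sms was therefore below its control in all 4 perturbed libraries. The knockdown call was lost when all 8 libraries shared one spread (adjusted p = 0.156), and the CPX call held in every alternative run.

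**Figure D2:**
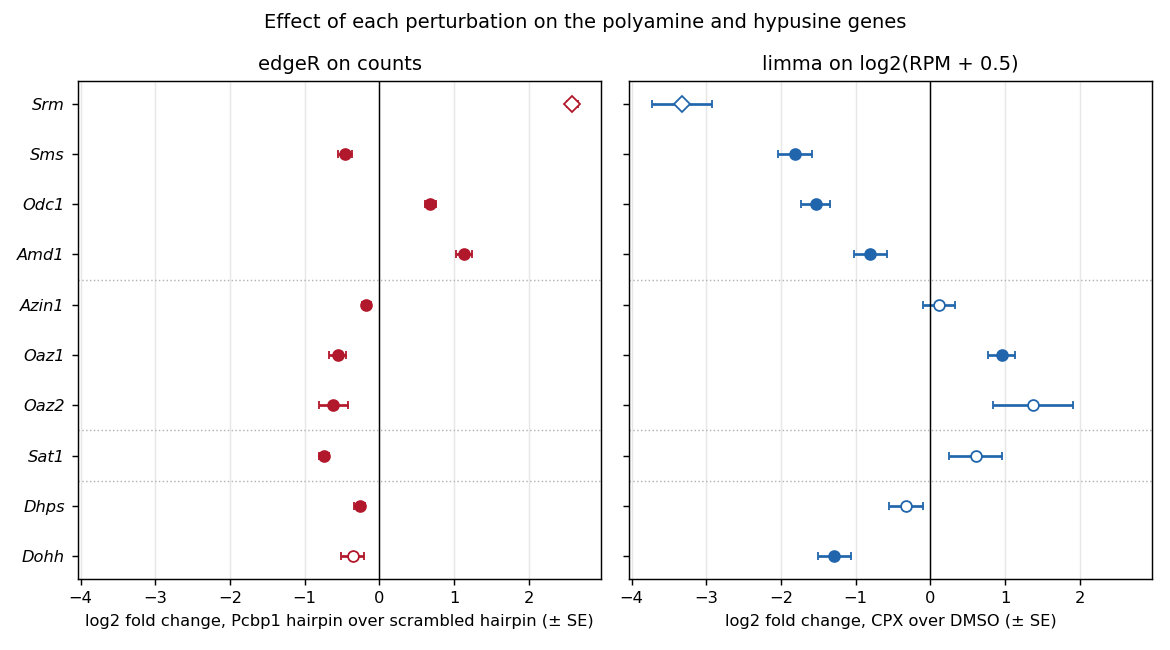
Log2 fold change of each gene (± SE) for the Pcbp1 hairpin over the scrambled hairpin (left) and CPX over DMSO (right), on one shared axis. Filled circles passed an adjusted p of 0.05, open circles did not, and the open diamond marks Srm, which was not tested. Odc1 and Amd1 lie right of 0 on the left and left of 0 on the right, and Oaz1 the other way round.

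Oaz1 moved against Odc1 in both experiments, and Oaz2 did so after the knockdown. Antizyme protein is made only when the ribosome shifts frame by one base at a UCCUGA stop site, a step that polyamines promote, so the transcript level measured here is not the protein level. The site is shown because both antizymes share it almost letter for letter (30 bases of transcript, GENCODE vM21, with the shift site in capitals):
Oaz1: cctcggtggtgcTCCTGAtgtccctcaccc
Oaz2: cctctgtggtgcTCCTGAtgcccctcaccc
The stretches share 28 of 30 bases and differ by G5T and T21C, given as the Oaz1 base, the position from the 5′ end starting at 1, and the Oaz2 base. Neither difference lies in the shift site.

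Oaz1, the higher antizyme per kilobase in every library, had 36.9 and 30.1 RPM with the Pcbp1 hairpin, against 44.2 and 47.4 RPM with the scrambled hairpin. It fell 1.47-fold (log2 -0.56, SE 0.12, edgeR adjusted p = 0.00461), a call lost, of the alternatives run, only when all 8 libraries shared one spread (0.0533). With CPX it had 429.9 and 431 RPM, against 213 and 231 RPM with DMSO. The CPX libraries were nearly equal and both above DMSO. The rise was 1.94-fold (log2 0.95, SE 0.18, limma adjusted p = 0.0108), and the adjusted p was 0.132 without DMSO replicate 1 and 0.0866 without DMSO replicate 2.

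Oaz2, the other antizyme gene, had low values. It had 6.32 and 4.76 RPM with the Pcbp1 hairpin, against 7.62 and 8.17 RPM with the scrambled hairpin. The fall was called by edgeR (log2 -0.62, SE 0.19, adjusted p = 0.0267). That call was lost in 6 of 11 alternatives. Among them were DESeq2 (0.0888), limma (0.0526), 1 fit of all 8 libraries (0.473) and fits with 1 library left out. The CPX libraries had 17.4 and 50 RPM, against 9.66 and 12.8 RPM with DMSO. Both CPX libraries lay above DMSO but far from each other, and the difference missed the threshold (log2 1.37, SE 0.54, limma adjusted p = 0.0873). Without CPX replicate 1 it was called (log2 2.12, adjusted p = 0.00952), and the authors' deposited table gave an adjusted p of 0.00537.

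Azin1, the antizyme inhibitor, changed least of the antizyme system. It had 308 and 305 RPM with the Pcbp1 hairpin, against 329 and 314 RPM with the scrambled hairpin. On edgeR's TMM scale this was a fall of 1.13-fold (log2 -0.17, SE 0.06, edgeR adjusted p = 0.0432). On the RPM shown the change was smaller (log2 -0.07, limma adjusted p = 0.360). The edgeR call was lost there, under DESeq2 (0.0754) and in 1 fit of all 8 libraries (0.766). Leaving out each of the 4 libraries in turn also lost the call. With CPX it had 349.5 and 273 RPM, against 296 and 273 RPM with DMSO, which overlapped (log2 0.12, SE 0.21, limma adjusted p = 0.671), and the difference was -0.06 without CPX replicate 1. An antisense gene, Gm49077, overlaps Azin1, and its reads could not be told apart if the counting ignored strand.

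Sat1, the acetyltransferase that starts polyamine export and breakdown, fell after the knockdown and overlapped its control with CPX. It had 139.8 and 126 RPM with the Pcbp1 hairpin, against 212 and 199.8 RPM with the scrambled hairpin (1.67-fold lower, log2 -0.74, SE 0.07, edgeR adjusted p = 9.79e-05), a call lost when all 8 libraries shared one spread (0.148). CPX-treated cells had 129 and 247 RPM, against 106 and 129.6 RPM with DMSO (log2 0.60, SE 0.35, limma adjusted p = 0.208). Only CPX replicate 2 stood above both DMSO libraries, and without CPX replicate 1 the rise was called (log2 1.07, adjusted p = 0.0170). Smox, spermine oxidase, which returns spermine to spermidine, was at the same level after the knockdown within its error (log2 0.01, SE 0.14, edgeR adjusted p = 0.978). With CPX it had 65.7 and 136.5 RPM, against 29.4 and 54.1 RPM with DMSO, short of the threshold (log2 1.24, SE 0.46, limma adjusted p = 0.0758). It was called higher in 6 of 13 alternatives, among them TMM-scaled totals (0.0458), quantile normalization (0.0330) and the replicate block (0.00700). The authors' deposited table gave an adjusted p of 0.0136. Paox, the oxidase of acetylated polyamines, was low throughout and fell with CPX, at 3.07 and 2.08 RPM against 6.31 and 7.11 RPM with DMSO (log2 -1.25, SE 0.33, limma adjusted p = 0.0295), a call lost without DMSO replicate 1 (0.1395) or 2 (0.185).

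Of the hypusine enzymes, Dohh fell with CPX and Dhps did not pass the test there. Dohh, deoxyhypusine hydroxylase, had 37.3 and 40.9 RPM with CPX, against 95.9 and 96.0 RPM with DMSO (2.44-fold lower, log2 -1.29, SE 0.22, limma adjusted p = 0.00772). With the Pcbp1 hairpin it had 55.8 and 39.0 RPM, against 53.6 and 59.3 RPM with the scrambled hairpin, which overlapped (log2 -0.36, SE 0.15, edgeR adjusted p = 0.0823). Replicate 1 of the hairpin sat among the controls and replicate 2 below them. Without replicate 1 the fall was called (log2 -0.62, adjusted p = 0.00107), and the CPX call was lost without DMSO replicate 1 (0.0832) or 2 (0.0790).

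Dhps, deoxyhypusine synthase, had 53.9 and 53.1 RPM with the Pcbp1 hairpin, against 58.0 and 61.2 RPM with the scrambled hairpin. This was a fall of 1.2-fold (log2 -0.26, SE 0.08, edgeR adjusted p = 0.0200). Dhps lost that call in 5 of 11 alternatives, among them DESeq2 (0.0694), limma (0.110), 1 fit of all 8 libraries (0.4565) and fits with 1 library left out. After CPX it had 53.8 and 47.2 RPM, against 67.4 and 59.3 RPM with DMSO (log2 -0.33, SE 0.23, limma adjusted p = 0.292). The CPX libraries lay below DMSO, by less than the test could call. Dhps overlaps Wdr83 on the opposite strand and Dohh overlaps Gm48551 on the same strand, so reads of those pairs may be mixed. Their substrate gene Eif5a had 1013 and 1036 RPM with the Pcbp1 hairpin, against 939.8 and 917 RPM with the scrambled hairpin (log2 0.03, SE 0.07, edgeR adjusted p = 0.707). With CPX it fell to 820.1 and 471 RPM, against 1903 and 1771 RPM with DMSO (2.95-fold, log2 -1.56, SE 0.30, limma adjusted p = 0.0106). Eif5a2, its paralog, was called lower after the knockdown (log2 -0.31, SE 0.09, edgeR adjusted p = 0.0234) and was not called with CPX (log2 -0.74, SE 0.32, limma adjusted p = 0.109). Its knockdown call was lost in 4 of 11 alternatives, without Pcbp1 hairpin replicate 1 (0.122) or scrambled hairpin replicate 1 (0.0668) among them, and it was called with CPX in 2 of 13.

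The effects of the hairpin and of CPX were compared directly in 1 limma fit of all 8 libraries, as the hairpin's log2 fold change minus that of CPX. The difference was called above 0 for 4 of the 9 genes, where 35.2% of 10430 genes were, and below 0 for 3, where 16.1% were. Over all genes the median difference was 0.40, and it was 0.24 with TMM-scaled totals and -0.02 with quantile normalization, so each value is to be read against that shift. Odc1 (2.32, adjusted p = 0.000128), Amd1 (2.03, adjusted p = 0.000549), Sms (1.46, adjusted p = 0.00197) and Dohh (1.02, adjusted p = 0.0157) lay above 0. Oaz1 (-1.41, adjusted p = 0.00115), Sat1 (-1.23, adjusted p = 0.0355) and Oaz2 (-1.86, adjusted p = 0.0444) lay below 0. The call of Oaz2 was lost in 7 of 15 alternatives (adjusted p up to 0.133), 6 of them with 1 library left out. That of Sat1 was lost in 6 of 15 (up to 0.109), all with 1 library left out. That of Dohh was lost in 3 of 15, quantile normalization (0.55, adjusted p = 0.114) among them. For Dhps (0.17, adjusted p = 0.497) the sign turned with the scaling, to -0.33 under quantile normalization. The 2 experiments also differ in RNA selection and in their controls, which cannot be told apart from the difference between the perturbations.

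Per kilobase of exon, the order of the 10 genes differed between groups, although genes were compared only within a group. With the Pcbp1 hairpin the highest mean levels were Odc1 at 248 RPM per kb, Srm at 187 and Sat1 at 112. With the scrambled hairpin Sat1 led at 174 RPM per kb, Odc1 followed at 144, and Srm lay at 29.0, below Azin1 (63.9), Dhps (44.7), Oaz1 (42.6) and Dohh (32.4). Dhps and Oaz1 overlapped there and their order is not resolved. With CPX Oaz1 led at 401 RPM per kb, ahead of Odc1 at 219 and Sat1 at 159, which overlapped each other. Srm at 36.1 could not be ordered there against Dhps at 37.9, Amd1 at 36.9, Dohh at 22.4 or Oaz2. With DMSO Odc1 led at 634 RPM per kb, followed by Srm at 338 and Oaz1 at 207. Oaz2 was the lowest with either hairpin and with DMSO (2.72, 3.88 and 5.52 RPM per kb), and Sms (10.8) lay below Oaz2 (16.6) with CPX, where Oaz2 ranged over 8.53 and 24.6.

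The ratio of Odc1 to Oaz1, the enzyme to its antizyme, put these shifts in one value per library. Per kilobase it was 6.91 and 9.24 with the Pcbp1 hairpin, against 3.52 and 3.25 with the scrambled hairpin. It was 0.50 and 0.592 with CPX, against 3.34 and 2.82 with DMSO. The hairpin libraries lay above and the CPX libraries below their controls, and with CPX the antizyme transcript outnumbered that of the enzyme. The ratio of Srm to Sms was 9.84 and 12.8 with the Pcbp1 hairpin, against 1.36 and 1.35 with the scrambled hairpin, and 4.38 and 2.17 with CPX, against 8.62 and 8.98 with DMSO. The ratio of Odc1 to Azin1 was 3.88 and 4.27 with the Pcbp1 hairpin, against 2.22 and 2.30 with the scrambled hairpin, and 2.88 and 4.38 with CPX, against 11.3 and 11.2 with DMSO. No test was run on these ratios, whose members were chosen with results known.

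**Figure D3:**
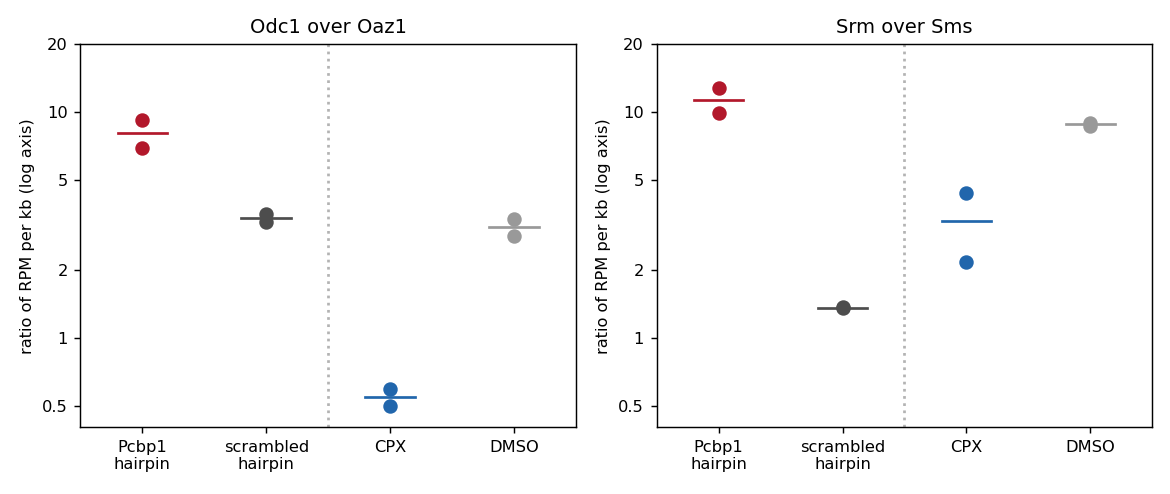
Ratio of RPM per kb of Odc1 to Oaz1 (left) and of Srm to Sms (right) in each library, on log axes, with bars at the mean of 2 libraries and a dotted line between the experiments. The Odc1 to Oaz1 ratio was 6.91 and 9.24 with the Pcbp1 hairpin and 0.50 and 0.592 with CPX, while both controls lay between.

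Around these genes, 31 others of polyamine supply, breakdown, transport and control were listed, and 26 were found. Of the 22 tested after the knockdown 8 were called higher and 4 lower, where 29.3% and 26.7% of all genes tested were. Of the 24 tested with CPX 5 were called higher and 9 lower, where 19.9% and 24.8% of all genes tested were. The counts of higher calls lie near those shares. The list with the most calls under CPX was S-adenosylmethionine supply and methionine salvage, the path that recovers methionine from the methylthioadenosine that SRM and SMS release. With CPX 6 of its 7 genes fell, where 24.8% of all genes tested did, with a median log2 fold change of -1.53 over the 7, against -0.12 over all genes. After the knockdown 2 rose, 2 fell and 3 were not called (median -0.08).

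Within methionine salvage, Adi1, the metal-dependent dioxygenase of its last oxidative step, had 5.16 and 3.53 RPM with CPX, against 50.9 and 42.5 RPM with DMSO (9.84-fold lower, log2 -3.30, SE 0.33, limma adjusted p = 0.00266). Mtap, which cleaves methylthioadenosine, had 42.5 and 42.2 RPM with CPX, against 291 and 232 RPM with DMSO (log2 -2.60, SE 0.22, adjusted p = 0.00241). Mri1, the next isomerase, had 10.8 and 6.81 RPM with CPX, against 43.3 and 55.0 RPM with DMSO (log2 -2.44, SE 0.34, adjusted p = 0.00464). For all 3 genes the groups lay far apart. Enoph1, the enolase-phosphatase, fell with CPX (log2 -1.53, SE 0.28, adjusted p = 0.00953), a call lost without DMSO replicate 1 (0.0709) or 2 (0.0903). Mat2a, which makes S-adenosylmethionine, fell by a like amount (log2 -1.48, SE 0.22, adjusted p = 0.00518). Mat2b, its regulatory subunit, fell least (log2 -0.99, SE 0.30, adjusted p = 0.0445) and its call was lost in 5 of 13 alternatives.

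After the knockdown the same path moved unevenly. Enoph1 had 35.9 and 37.7 RPM with the Pcbp1 hairpin, against 15.0 and 13.6 RPM with the scrambled hairpin (log2 1.26, SE 0.11, edgeR adjusted p = 6.85e-05), and Mri1 rose (log2 0.47, SE 0.11, adjusted p = 0.00889). Apip, the dehydratase between those enzymes, had 3.93 and 3.15 RPM with the Pcbp1 hairpin, against 7.76 and 5.73 RPM with the scrambled hairpin, and fell (log2 -1.03, SE 0.23, adjusted p = 0.00648). Mtap fell slightly (log2 -0.23, SE 0.06, adjusted p = 0.0154), a call lost in 4 of 11 alternatives, without Pcbp1 hairpin replicate 1 (0.0771) or scrambled hairpin replicate 2 (0.0513) among them. Adi1 (0.32), Mat2a (-0.08) and Mat2b (-0.19) did not pass the test.

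Arginine and ornithine supply feeds ODC1. After the knockdown Slc7a1, the cationic amino acid carrier CAT-1, had 96.7 and 105 RPM with the Pcbp1 hairpin, against 52.9 and 50.9 RPM with the scrambled hairpin (log2 0.85, SE 0.08, edgeR adjusted p = 8.03e-05). Aldh18a1, which leads from glutamate towards ornithine and proline, rose (log2 0.55, SE 0.07, adjusted p = 0.000509), as did Slc3a2, the heavy chain of several amino acid carriers (log2 0.31, SE 0.09, adjusted p = 0.0226). The Slc3a2 call was lost in 3 of 11 alternatives, without Pcbp1 hairpin replicate 1 (0.0876) or scrambled hairpin replicate 1 (0.0833) among them. Oat, the aminotransferase that interconverts ornithine and glutamate semialdehyde, fell (log2 -0.80, SE 0.13, adjusted p = 0.00149). With CPX Slc3a2 had 1510 and 1084 RPM, against 461 and 415 RPM with DMSO (log2 1.55, SE 0.23, limma adjusted p = 0.00534). Ass1, argininosuccinate synthase, rose to 155 and 141 RPM with CPX, against 55.2 and 80.8 RPM with DMSO (log2 1.14, SE 0.26, adjusted p = 0.0184), a call lost without DMSO replicate 1 (0.187). Arg2, the mitochondrial arginase, was called higher with CPX from low values, 1.30 and 1.77 RPM against 0.203 and 0.0512 RPM with DMSO (adjusted p = 0.00719), and the call was lost with quantile normalization (0.0688) and without DMSO replicate 2 (0.0524). Slc7a1 and Aldh18a1 were not called with CPX (log2 0.37 and 0.01).

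Of the transport genes, Atp13a2 and Atp13a3, polyamine-transporting ATPases, were called in neither experiment. The gene 1110021L09Rik, an older symbol of the vesicular polyamine carrier gene Slc18b1, was called higher with CPX (adjusted p = 0.0306) from 9.48 and 1.14 RPM, while both DMSO libraries were listed at 0 RPM. That call was lost with a pseudocount of 2, with no filter on low values and with quantile normalization (adjusted p up to 0.0910), and the log2 fold change ran over 1.59 to 5.11 in the alternatives.

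Myc encodes a transcription factor known to bind the Odc1 gene, and its level moved the way those of Odc1 and Amd1 did. It had 781 and 917 RPM with the Pcbp1 hairpin, against 364 and 449 RPM with the scrambled hairpin (1.94-fold higher, log2 0.96, SE 0.12, edgeR adjusted p = 0.000467). With CPX it had 56.9 and 45.0 RPM, against 1552 and 1263 RPM with DMSO (27.4-fold lower, log2 -4.78, SE 0.23, limma adjusted p = 0.00241). Both differences were far larger than the spread within groups. Max, its partner, was called higher after the knockdown (log2 0.25, SE 0.08, edgeR adjusted p = 0.0260) and was not called with CPX. The knockdown call was lost in 5 of 11 alternatives, by DESeq2 (0.1403) and without Pcbp1 hairpin replicate 2 (0.162) or scrambled hairpin replicate 1 (0.109) or 2 (0.0772) among them. Mycn was called higher with CPX from 3.8 and 5.87 RPM, against 0.712 and 2.05 RPM with DMSO (log2 1.58, SE 0.46, limma adjusted p = 0.0386), a call lost in 5 of 12 alternatives. These were no filter (0.0646), quantile normalization (0.0589), and the fits without DMSO replicate 1 (0.25) or CPX replicate 1 (0.0617) or 2 (0.129). Whether Myc has a part in the changes of the other genes was not tested.

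**Figure D4:**
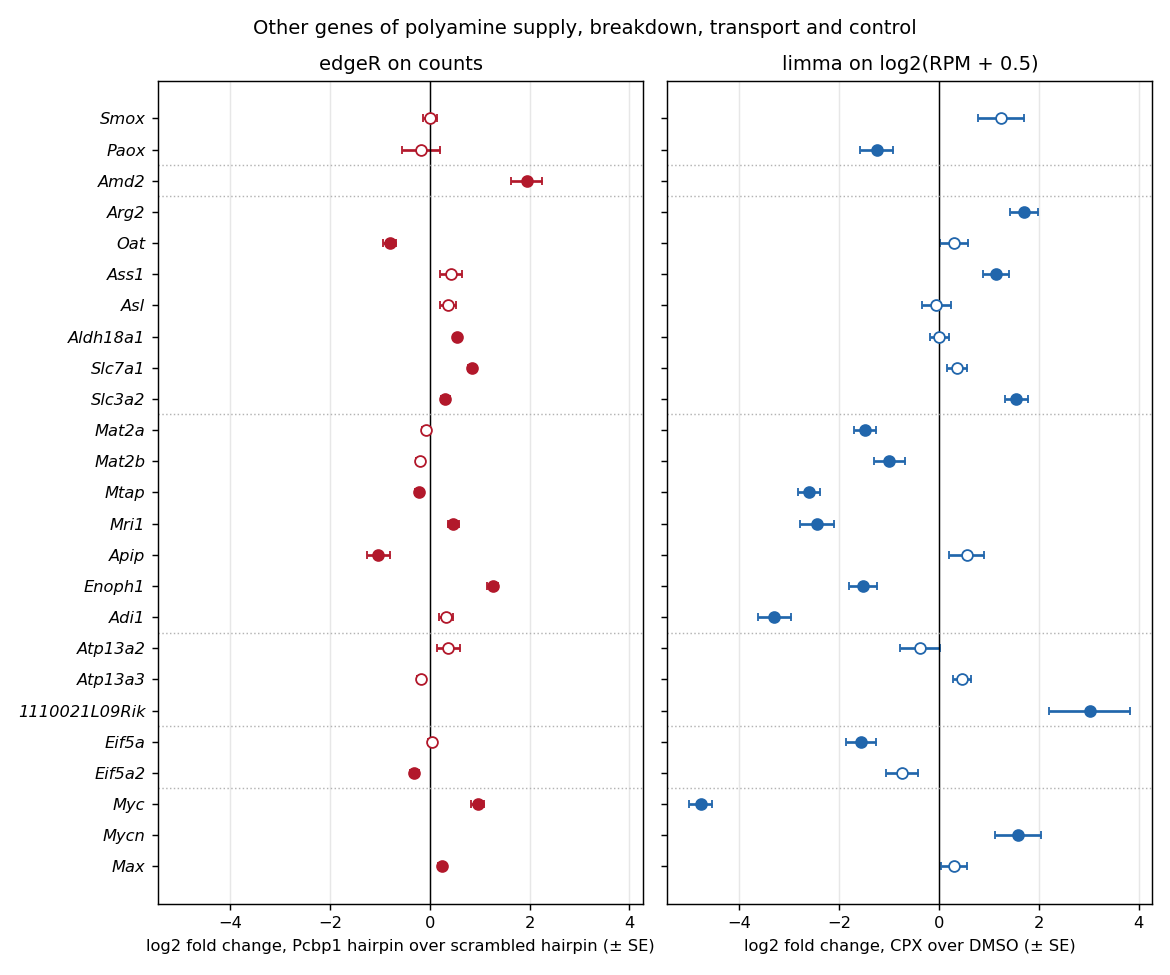
Log2 fold change (± SE) of the other listed genes for the Pcbp1 hairpin over the scrambled hairpin (left) and CPX over DMSO (right), on one shared axis. Filled circles passed an adjusted p of 0.05, dotted lines part the lists (breakdown, the copy of Amd1, arginine and ornithine supply, S-adenosylmethionine and methionine salvage, transport, eIF5A, Myc family), and a gene with no circle was not tested. In methionine salvage 6 of 7 circles are filled and left of 0 for CPX.

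The genes whose pattern over the 8 libraries was most like that of Srm were found by the root mean square difference of log2(RPM + 0.5), centred within each experiment, among 8111 genes. They were Dpagt1 (0.27), the first enzyme of N-glycan precursor synthesis, Znhit6 (0.35), an assembly factor of box C/D snoRNPs, Mthfd1 (0.40), an enzyme of folate metabolism, Zfp296 (0.40), a zinc finger protein, and Tmem109 (0.42), a membrane protein. Dpagt1 averaged 29.6 RPM with the Pcbp1 hairpin, against 5.51 RPM with the scrambled hairpin, and 3.46 RPM with CPX, against 47.8 RPM with DMSO. The nearest of the other 9 polyamine and hypusine genes lay farther off: Odc1 at 0.98, Amd1 at 1.05 and Sms at 1.23. Since these genes were ranked by likeness to Srm, their levels carry no test.

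Promoter sequences are shown for the 4 tested genes called lower with CPX, each as 250 bases before to 50 after the start site (RefSeq, GRCm38.p6). Of the 10 genes 8 had at least 1 window, 9 windows in all. Srm, which was also lower with CPX, and Azin1 had none. The motifs searched, on both strands, were the E-box CACGTG, the core that MYC and MAX are known to bind, the GC box GGGCGG of SP1-type factors, and the TATA box TATAAA. Matches are in capitals.
Odc1 (chr12:17544623-17544922, + strand): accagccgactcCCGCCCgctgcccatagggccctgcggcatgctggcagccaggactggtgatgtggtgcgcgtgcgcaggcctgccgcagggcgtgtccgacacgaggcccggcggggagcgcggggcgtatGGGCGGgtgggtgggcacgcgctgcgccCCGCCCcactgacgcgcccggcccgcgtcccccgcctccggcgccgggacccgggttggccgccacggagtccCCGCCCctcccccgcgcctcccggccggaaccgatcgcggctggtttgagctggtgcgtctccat
Amd1 (chr10:40302139-40302438, - strand): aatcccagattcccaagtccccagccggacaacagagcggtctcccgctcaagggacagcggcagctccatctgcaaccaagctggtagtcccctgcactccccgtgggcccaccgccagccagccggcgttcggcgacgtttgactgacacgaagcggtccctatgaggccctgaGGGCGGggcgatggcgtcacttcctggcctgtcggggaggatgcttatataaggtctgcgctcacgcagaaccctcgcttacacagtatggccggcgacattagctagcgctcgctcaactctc
Sms (chrX:157492238-157492537, - strand): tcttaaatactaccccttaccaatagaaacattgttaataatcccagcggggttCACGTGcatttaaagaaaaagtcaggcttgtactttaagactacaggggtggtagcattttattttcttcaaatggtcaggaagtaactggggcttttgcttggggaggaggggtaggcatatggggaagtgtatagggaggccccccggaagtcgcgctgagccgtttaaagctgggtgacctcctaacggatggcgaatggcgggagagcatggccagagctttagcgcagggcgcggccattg
Dohh (chr10:81384184-81384483, + strand): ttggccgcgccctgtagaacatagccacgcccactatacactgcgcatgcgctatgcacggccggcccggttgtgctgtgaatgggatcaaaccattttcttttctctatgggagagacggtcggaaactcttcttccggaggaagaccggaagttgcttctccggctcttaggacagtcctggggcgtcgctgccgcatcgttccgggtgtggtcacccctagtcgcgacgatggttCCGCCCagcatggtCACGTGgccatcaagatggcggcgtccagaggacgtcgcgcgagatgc
The E-box was in 7.15% of 32851 windows of all genes, and in this set in Dohh, starting at 2 with the start site counted as 0, and in the Sms window shown, starting at -196. The GC box was in 35.7% of all windows. Odc1 held 4, Amd1 1, Dohh 1 and the window shown of Sms none. The other Sms window held 4, sharing 4 bases where matches overlap. Of the genes not shown, Oaz2 held 4, sharing 1 base, and Sat1 held 2. TATAAA, in 13.6% of all windows, was in that of Oaz1 alone among the 9. A match is a description of these letters only, and none was measured as bound. Sequence outside these windows, such as introns, was not searched, so a gene without a match here may hold the motif elsewhere.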

How the data were processed

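Per the submitters' processing notes, reads passed through cutadapt, STAR, HTSeq and DESeq (build mm9, no versions). The deposited values of the hairpin libraries are whole read counts, although the table is named for RPM. For CPX and DMSO the deposited values are a score, counts that were rescaled and rounded, so no count test was used. The authors' DESeq2 tables, per the file headers, give a mean signal (size-factor-scaled counts), log2 fold changes, their errors and p-values. From the constant line labelled Ins1 on, deposited row labels were displaced. The 14805 lines reaching 10 were assigned to genes by the authors' mean signal, and 14455 matched 1 gene. RPM is a value per total times 1e+06.

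The members and lists were chosen with earlier results of these data known. Genes reaching 1 RPM in 2 libraries were tested with edgeR 4.0.16 (TMM, hairpins) or limma 3.58.1 (log2(RPM + 0.5), CPX and the difference of effects) in R 4.3.3, with Benjamini-Hochberg adjustment over all genes tested and a threshold of 0.05. The edgeR SE was obtained by dividing the absolute log2 change by the square root of F. The pseudocount understates the change of low genes. DESeq2 1.42.0, other scalings, filters, pseudocounts and left-out libraries were alternatives. The fits were also run on simulated data with the same spread for every gene, which does not bear on the calls reported here. Named beside the members were list genes called in either comparison or of smallest p, and the 5 genes most like Srm. Gene lengths and overlaps are from GENCODE vM21.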

Additional observations from a re-analysis of the deposited data

Results flagged for a closer look

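For 7 of the 9 genes tested, the hairpin effect and the CPX effect differed by the limma test of their difference (hairpin minus CPX, 1 fit of all 8 libraries, log2 scale). Of all 10430 genes tested, 35.2% were called above 0 and 16.1% below 0, and the all-gene median of the difference was 0.40. The difference was 2.32 for Odc1 (adjusted p = 0.000128), 2.03 for Amd1 (adjusted p = 0.000549), 1.46 for Sms (adjusted p = 0.00197) and 1.02 for Dohh (adjusted p = 0.0157). It was -1.41 for Oaz1 (adjusted p = 0.00115), -1.86 for Oaz2 (adjusted p = 0.0444) and -1.23 for Sat1 (adjusted p = 0.0355). The call was lost in 7 of 15 alternatives for Oaz2, in 6 for Sat1 and in 3 for Dohh. For Odc1 and Amd1 the 2 effects were both called, with opposite signs, and so were those of Oaz1. For Sms both effects were called lower, with the larger fall under CPX. For Oaz2, Sat1 and Dohh only 1 of the 2 effects was called. The RNA selection differs between the experiments and cannot be told apart from the perturbations.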

How the results depend on the processing

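Of the 6482 genes and 8 polyamine and hypusine genes called after the knockdown, DESeq2 called 5095 and 5, limma on log2 values 6505 and 5, and 1 fit of all 8 libraries with a shared spread 2759 and 2 (Odc1 and Amd1). Leaving out 1 hairpin or scrambled library gave 5518 to 5775 genes and 5 to 7 of the 9. For CPX, with 5124 genes and 5 of the 9, leaving out 1 library gave 2535 to 5512 genes and 2 to 7 of the 9. The lowest counts came without DMSO replicate 1 (2535 genes) or 2 (2785 genes). For the difference, with 5346 genes and 7 of the 9, leaving out 1 library gave 3880 to 6720 genes and 4 to 8 of the 9, with 4 without Pcbp1 hairpin replicate 1 or scrambled hairpin replicate 1. A group of 1 library is assumed to vary like the others. Quantile normalization split the difference calls into 2782 higher and 2580 lower, against 3671 and 1675. It moved the CPX median of all genes to -0.02.

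Some signs turned, none of them of a called value. After the knockdown Smox was -0.0116 by DESeq2, -0.0111 with median ratio factors, -0.0061 with no filter, -0.0216 with a filter of 5 RPM, -0.0045 with the replicate block, and -0.209 to 0.172 with 1 library left out. Mat2a was 0.0241 by limma and in the fit of all 8 libraries. With 1 library left out, Mat2a was -0.19 to 0.0082, Paox -0.588 to 0.378 and Eif5a -0.0131 to 0.0675 after the knockdown, and Azin1 was -0.0588 to 0.298, Aldh18a1 -0.0651 to 0.084 and Atp13a2 -0.793 to 0.0249 with CPX. The difference for Dhps was -0.0013 with TMM-scaled totals and -0.326 with quantile normalization. The causes were not tested.

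The labels do not say that replicate numbers pair libraries. Deviations of same-numbered libraries correlated at 0.346 in the hairpin experiment and 0.0919 with CPX, with 2 pairs each. A replicate block gave 7348, 5651 and 5362 genes for the knockdown, CPX and the difference, and 9, 6 and 7 of the 9 genes. It added Dohh to the knockdown (adjusted p = 0.0186) and Oaz2 to CPX (adjusted p = 0.0180). Depth is known for the hairpin libraries alone.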
